A study of Mus musculus with 9 samples.

Results

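The osteoclast precursor genes are a set of 10 genes chosen by name, Csf1, Csf1r, Tnfrsf11a, Tyrobp, Oscar, Traf6, Spi1, Mitf, Nfatc1 and Acp5, which stand for M-CSF and RANK signalling and the osteoclast programme in blood precursors. All 10 had a row among the 20926 genes of the deposited table. The rule for them uses no measured value, but the set was chosen with earlier results of these data known. RNA of blood from male DBA/1 mice was sequenced with 3 libraries in each of 3 groups, 9 in all, taken from a study of 60 mice that were 7 weeks old when the groups were formed. The Ctrl mice had no arthritis and no irradiation. Arthritis in the CIA mice was induced by immunisation with chick type II collagen in adjuvant followed by a booster (collagen-induced arthritis, used to model rheumatoid arthritis), and they were not irradiated. In the CIA+THz mice arthritis was induced likewise, and the swollen ankle joints received 30 min of 0.1 THz irradiation daily for 14 days under isoflurane. Whether Ctrl and CIA mice were also anaesthetised, and whether each library is 1 mouse, is not given in the sources used here, so p-values measure the spread between libraries, which may be partly technical.

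Osteoclasts are the bone-resorbing cells that destroy bone at inflamed joints, and they arise from monocyte-lineage precursors, some of which circulate in blood. M-CSF, the product of Csf1, acts through the receptor encoded by Csf1r to keep these precursors alive and dividing, and it raises the RANK receptor encoded by Tnfrsf11a. RANK then signals through TRAF6, while ITAM-bearing adaptors such as DAP12, the product of Tyrobp, supply a co-stimulatory calcium signal, and both lead to NFATc1, the master regulator of the resorbing cell. PU.1, the product of Spi1, and MITF act with NFATc1 on genes such as Acp5, which encodes the tartrate-resistant acid phosphatase used to stain osteoclasts.

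The deposited values are FPKM, which relates fragments to the length of the transcript and to the library total, and hold no counts, so no depth can be read from them and none was estimated here. Each library was divided by 1 median-of-ratios factor, between 0.847 and 1.24, computed from the 10312 genes with a value above 0 in each of the 9 libraries, and levels below are rescaled FPKM. Changes are given on the scale of log2(rescaled FPKM + 0.1), on which genes near 0 appear to change less than they do, and they were tested with limma on the 12366 genes with a mean level of at least 0.1. The rescaling matters for the irradiated group: the median gene changed by 0.03 on the log2 scale in CIA+THz against CIA after it and by 0.29 in the FPKM as deposited. The libraries are labelled as blood leukocytes, and the leukocyte marker Ptprc was found in all 9, at 150, 141 and 92.7 in Ctrl, 70.8, 66.8 and 141 in CIA, and 139, 136 and 143 in CIA+THz. With an unadjusted p under 0.05 it was higher in CIA+THz against CIA (0.67, limma adjusted p of 0.365), with CIA library 3 among the irradiated libraries, which is opposite in sign to the differences of Csf1r, Tyrobp and Spi1, and its part in them was not tested. The libraries also held much red cell RNA, since Alas2, a gene of red cell precursors, made up 11.4% to 16.7% of the FPKM total, depending on the library. No gene had the same value above 0 in any pair of libraries.

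The blood carried the myeloid members Spi1, Tyrobp and Csf1r at high level, while Tnfrsf11a and Mitf were near 0 and Oscar was listed at 0. Spi1 and Tyrobp stood highest, followed by Csf1r, Csf1, Nfatc1, Acp5 and Traf6 in every group, and Tnfrsf11a and Mitf lay far below them. In the Ctrl libraries the mean level was 230 for Spi1, 227 for Tyrobp, 95.2 for Csf1r, 63.3 for Csf1, 32.3 for Nfatc1, 16.0 for Acp5, 12.5 for Traf6, 0.642 for Tnfrsf11a and 0.563 for Mitf. FPKM is a value per length, so these levels can be set side by side. Neighbours in this order whose libraries overlapped were Spi1 and Tyrobp in Ctrl and CIA but not in CIA+THz, Acp5 and Traf6 in Ctrl only, and Tnfrsf11a and Mitf in all 3 groups. Spi1 lay at the 98.1 percentile of the mean levels of all genes tested and Csf1r at the 96.5 percentile, against the 20.9 percentile for Tnfrsf11a and the 12.6 percentile for Mitf. Oscar was listed at 0 in all 9 libraries and was not tested, so that 9 of the 10 members passed the filter on low values.

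**Figure D1:**
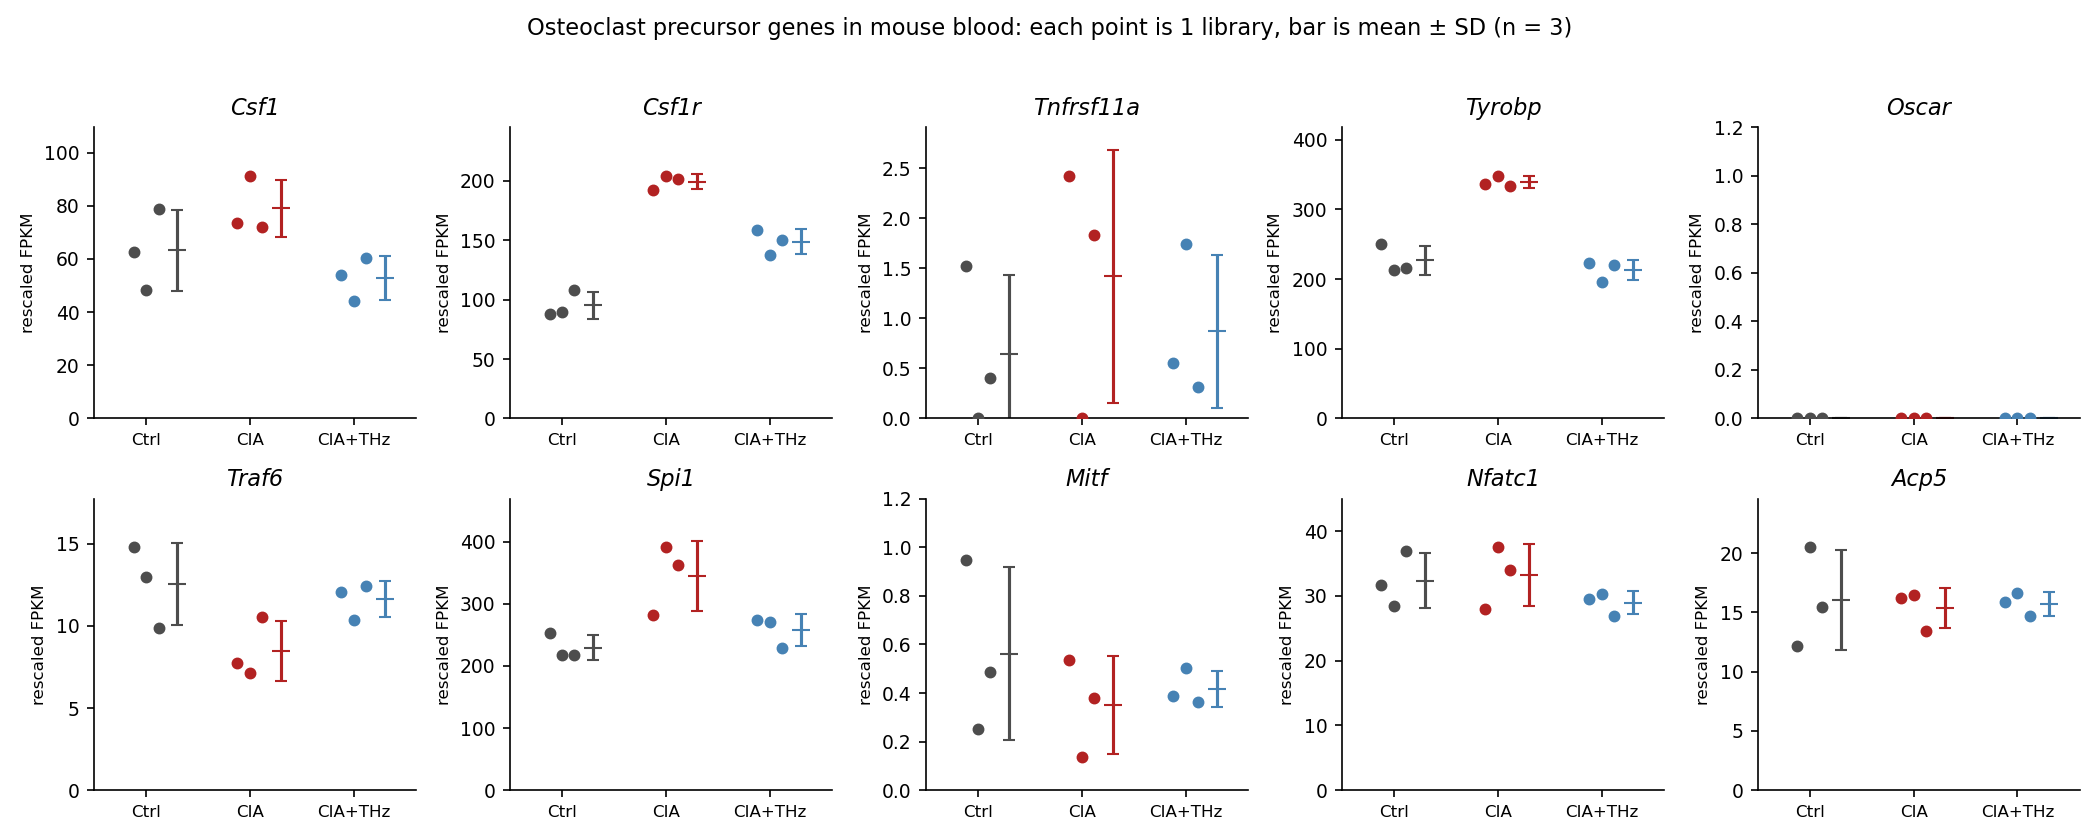
Level of each of the 10 genes in rescaled FPKM (vertical axes start at 0 and differ between panels) in the Ctrl, CIA and CIA+THz groups, with 1 point per library and the mean ± SD of 3 libraries beside it. Csf1r is near 199 in CIA with no overlap with either other group, Tyrobp and Spi1 are highest in CIA, Acp5 and Nfatc1 overlap throughout, and Oscar lies at 0 in every library.

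Across the 3 groups, 5 of the 9 members tested, Csf1r, Tyrobp, Spi1, Csf1 and Traf6, reached p under 0.05, before adjustment, in the moderated F-test of limma, where 21.3% of all genes tested did. After Benjamini-Hochberg adjustment over all genes, 2 members remained under 0.05, Csf1r with an adjusted p of 0.0051 and Tyrobp with 0.0209, where 2.53% of all genes did. For a pair of groups, a gene passed the criterion with p under 0.05 before adjustment and a log2 difference beyond 0.67 in either direction. By it, Csf1r rose in CIA against Ctrl, Tyrobp fell in CIA+THz against CIA, and no member passed in CIA+THz against Ctrl. The 3 comparisons share libraries, so each is given with its own values.

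Csf1, the ligand, was read at 62.5, 48.5 and 78.9 in the Ctrl libraries, 73.5, 91.3 and 72.2 in the CIA libraries, and 54.1, 44.1 and 60.2 in the CIA+THz libraries. Every CIA library lay above every CIA+THz library, while Ctrl overlapped both. The log2 fold change was 0.34 ± 0.19 (SE) in CIA against Ctrl, with a limma adjusted p of 0.411. In CIA+THz against CIA it was -0.58 ± 0.15 (SE), with an unadjusted p of 0.0062 and an adjusted p of 0.236, which is under the fold that the criterion asks for. It was -0.31 in FPKM as deposited, where the groups overlapped. Leaving out CIA+THz library 3 brought the difference to -0.68, past the criterion. Csf1 lies at chr3:107741048-107760469 on the minus strand (GRCm38, GENCODE), with no other gene over it.

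Csf1r, the M-CSF receptor and a hallmark of monocytes and their descendants, showed the largest difference of the set between Ctrl and CIA among the members above 1 in every library. Its level was 88.3, 89.3 and 108 in Ctrl, 192, 204 and 201 in CIA, and 159, 137 and 150 in CIA+THz. The 3 groups did not overlap, with Ctrl lowest, CIA+THz between and CIA highest. The mean was 95.2 ± 11.1 (SD, n = 3) in Ctrl and 199 ± 6.18 (SD, n = 3) in CIA, a ratio of 2.09. On the log2 scale Csf1r rose by 1.07 ± 0.12 (SE) in CIA against Ctrl with a limma adjusted p of 0.0361. It was 1 of 9 members past the criterion, in a comparison where 9.04% of all genes tested passed and 0.154% had an adjusted p under 0.05. Leaving out each library in turn gave 1.02 to 1.17. The part of its gene body that overlaps Hmgxb3 on the other strand is a limit of the value, since the strand setting of the counting is not given in the sources used here. Hmgxb3 itself stood between 3.00 and 5.08 in the 9 libraries, far below Csf1r.

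In the irradiated mice Csf1r averaged 149 ± 10.8 (SD, n = 3), 0.746 times the CIA mean and 1.56 times the Ctrl mean. Its log2 fold change was -0.42 ± 0.09 (SE) in CIA+THz against CIA, with a limma adjusted p of 0.210, and 0.65 ± 0.12 (SE) in CIA+THz against Ctrl, with an adjusted p of 0.0839. Both differences were under the fold of the criterion. The first depends on the scaling, being -0.15 in FPKM as deposited, where the groups overlapped, and -0.10 in TPM. The second passed it without Ctrl library 3 (0.74), without CIA+THz library 2 (0.70) and in FPKM as deposited (0.95). Of the 9 members tested, Csf1r was after rescaling the one whose groups did not overlap in CIA+THz against Ctrl, where 24.0% of all genes tested did not. In FPKM as deposited Csf1r and Spi1 did not overlap there, where 30.3% of all genes did not.

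Tnfrsf11a, which encodes RANK, was at the edge of detection. It was listed at 1.52, 0 and 0.402 in Ctrl, at 2.43, 0 and 1.83 in CIA, and at 0.551, 1.74 and 0.317 in CIA+THz. The groups overlapped, and the 95% interval of the log2 difference in CIA against Ctrl ran from -2.59 to 4.31, so neither a rise nor a fall of several-fold was outside what the values allow. Its position is chr1:105780718-105847981 on the plus strand.

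Tyrobp, which encodes the DAP12 adaptor that signals beneath TREM2 and related receptors of myeloid cells, was read at 251, 213 and 216 in Ctrl, 336, 348 and 333 in CIA, and 223, 196 and 220 in CIA+THz. The CIA libraries stood above all 6 others, and Ctrl and CIA+THz overlapped. In CIA against Ctrl the log2 fold change was 0.58 ± 0.11 (SE), with an unadjusted p of 0.0012 and an adjusted p of 0.0758, which is under the fold of the criterion. Irradiated mice showed less Tyrobp than CIA mice: it fell by 0.67 (log2), with an SE of 0.09 and a limma adjusted p of 0.172, a ratio of means of 0.628. It was 1 of 9 members past the criterion there, where 4.54% of all genes tested passed and 0% had an adjusted p under 0.05. By direction, 2.94% of all genes passed as higher and 1.60% as lower after rescaling, and 9.11% and 0.534% in FPKM as deposited.

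The Tyrobp call rests on the edge of the fold threshold. Without CIA library 2 the difference was -0.65 and without CIA+THz library 2 it was -0.61, both no longer past the criterion. A pseudocount of 1 gave -0.67, just inside the threshold, and in FPKM as deposited the difference was -0.39, so the direction held and the call did not. Tyrobp lies at chr7:30413760-30417585 on the plus strand, with no other gene over it.

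Oscar, whose product is a collagen receptor that pairs with the FcRγ adaptor in the osteoclast lineage, was listed at 0 in each library, at chr7:3609813-3616157 on the minus strand. The partner adaptor Fcer1g was at 468, 417 and 352 in Ctrl, 594, 628 and 512 in CIA, and 433, 389 and 389 in CIA+THz. The CIA libraries again stood above the others, by 0.49 ± 0.15 (SE) against Ctrl on the log2 scale (limma adjusted p of 0.190), and CIA+THz differed from CIA by -0.51 ± 0.11 (SE), with an adjusted p of 0.210, or by -0.24 in FPKM as deposited. Neither difference reached the fold of the criterion.

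Traf6, the signalling adaptor beneath RANK, had differences opposite in sign to those of Csf1r, Tyrobp and Spi1 in CIA against Ctrl and in CIA+THz against CIA. Its level was 14.8, 12.99 and 9.87 in Ctrl, 7.74, 7.13 and 10.5 in CIA, and 12.1, 10.4 and 12.4 in CIA+THz. CIA library 3 overlapped both other groups. The log2 fold change was -0.56 ± 0.22 (SE) in CIA against Ctrl, with an unadjusted p of 0.0390 and an adjusted p of 0.262, and 0.47 ± 0.18 (SE) in CIA+THz against CIA, with an unadjusted p of 0.0360 and an adjusted p of 0.345. Neither passed the criterion on all 6 libraries. The first did without Ctrl library 3 (-0.72) or without CIA library 3 (-0.73), and the second did in FPKM as deposited (0.74). Traf6 lies at chr2:101678429-101701669 on the plus strand.

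Because PU.1, MITF and NFATc1 are members themselves, the promoters of the set were searched for short letters that such factors are known to bind. RefSeq promoters on GRCm38.p6 were at hand for 6 of the 10 members, Csf1, Tnfrsf11a, Acp5, Oscar, Mitf and Traf6, and the 250 bases before each start were read on both strands for GAGGAA as the core of a PU.1 site, TGGAAA as the core of an NFAT site, TGANTCA as the AP-1 site and CACGTG as the E-box of MITF. Over all 32851 RefSeq promoters of this length, 23.3% held the PU.1 core, 18.6% the NFAT core, 6.75% the AP-1 letters and 6.02% the E-box. The PU.1 core was found in the promoters of 2 members, Traf6 with 2 matches and Oscar with 1, and it was also found in that of Trem2, with 1. They are shown because they pair a member that was lower in arthritis without passing the criterion (Traf6), the member at 0 (Oscar) and the pathway gene with the largest rise past the criterion (Trem2). Each runs 5′ to 3′ on its gene's strand and ends at the base before the start. Capitals mark matches on either strand, and a match is a description of letters, not a bound site. The windows are chr2:101678170-101678419 (plus strand) for Traf6, chr7:3616158-3616407 (minus strand) for Oscar and chr17:48346151-48346400 (plus strand) for Trem2.
Traf6: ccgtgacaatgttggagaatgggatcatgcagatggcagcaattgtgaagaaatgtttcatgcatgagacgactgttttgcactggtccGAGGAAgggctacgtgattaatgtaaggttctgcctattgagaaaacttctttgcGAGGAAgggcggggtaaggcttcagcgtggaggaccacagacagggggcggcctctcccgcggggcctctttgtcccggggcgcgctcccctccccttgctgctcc
Oscar: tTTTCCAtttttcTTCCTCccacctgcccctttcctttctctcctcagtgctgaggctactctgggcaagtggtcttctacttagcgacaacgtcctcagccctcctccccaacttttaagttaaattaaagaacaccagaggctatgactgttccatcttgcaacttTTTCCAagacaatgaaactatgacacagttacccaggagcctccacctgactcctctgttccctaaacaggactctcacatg
Trem2: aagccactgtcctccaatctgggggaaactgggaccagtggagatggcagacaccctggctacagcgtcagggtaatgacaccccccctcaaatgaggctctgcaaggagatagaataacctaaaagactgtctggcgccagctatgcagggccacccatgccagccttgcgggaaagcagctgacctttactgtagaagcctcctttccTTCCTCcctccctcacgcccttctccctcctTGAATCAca
The Oscar window also holds 2 matches of the NFAT core, both on the other strand. The same core had 1 match in 1 of the 3 windows of Mitf and in 1 of the 3 windows of Acp5, and the Trem2 window holds 1 AP-1 match next to its end. None of the matches shown overlaps another.

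Spi1, which encodes PU.1, the factor that commits precursors to the myeloid lineage, was at 253, 218 and 218 in Ctrl, 281, 391 and 362 in CIA, and 274, 271 and 229 in CIA+THz. The CIA libraries were the 3 highest, with CIA library 1 close to the irradiated libraries. The log2 fold change was 0.58 ± 0.15 (SE) in CIA against Ctrl, with a limma adjusted p of 0.150, and -0.41 ± 0.15 (SE) in CIA+THz against CIA, with an adjusted p of 0.325. The second was -0.13 in FPKM as deposited and -0.086 in TPM. Both were under the fold of the criterion, and without CIA library 1 the first rose to 0.72, past it. Spi1 lies at chr2:91082390-91115756 on the plus strand.

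Mitf, a partner of PU.1 in the osteoclast lineage, was low everywhere, at 0.950, 0.251 and 0.488 in Ctrl, 0.535, 0.136 and 0.381 in CIA, and 0.387, 0.503 and 0.364 in CIA+THz. All groups overlapped, and the 95% interval of the log2 difference in CIA against Ctrl was -1.99 to 0.93. Its span, chr6:97807052-98021349 on the plus strand, also holds the pseudogene Gm15531 on the other strand.

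Nfatc1 was at 31.7, 28.4 and 36.9 in Ctrl, 28.0, 37.5 and 34.0 in CIA, and 29.5, 30.3 and 26.9 in CIA+THz, and every pair of groups overlapped. The 95% interval of the log2 difference was -0.34 to 0.41 in CIA against Ctrl and -0.50 to 0.12 in CIA+THz against CIA, so a rise of the size seen for Csf1r in CIA lies outside the first. The difference in CIA+THz against CIA was -0.19 after rescaling and 0.09 in FPKM as deposited, so its sign depends on the scaling. An antisense gene, AC123818.1, overlaps Nfatc1, and without the strand setting their reads cannot be told apart.

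Acp5 was the steadiest member by its group means, which were 16.0 ± 4.20 (SD, n = 3) in Ctrl, 15.4 ± 1.68 (SD, n = 3) in CIA and 15.7 ± 0.985 (SD, n = 3) in CIA+THz. The libraries read 12.2, 20.5 and 15.5 in Ctrl, 16.2, 16.5 and 13.4 in CIA, and 15.9, 16.6 and 14.7 in CIA+THz, and Ctrl libraries 1 and 2 were the lowest and the highest of all 9. The 95% interval of the log2 difference was -0.53 to 0.46 in CIA against Ctrl and -0.26 to 0.33 in CIA+THz against CIA. The second difference was 0.31 in FPKM as deposited, with an unadjusted limma p of 0.0533, and the groups did not overlap. Acp5 lies at chr9:22126727-22135711 on the minus strand, where the transcript 6530413G14Rik runs on the other strand.

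**Figure D2:**
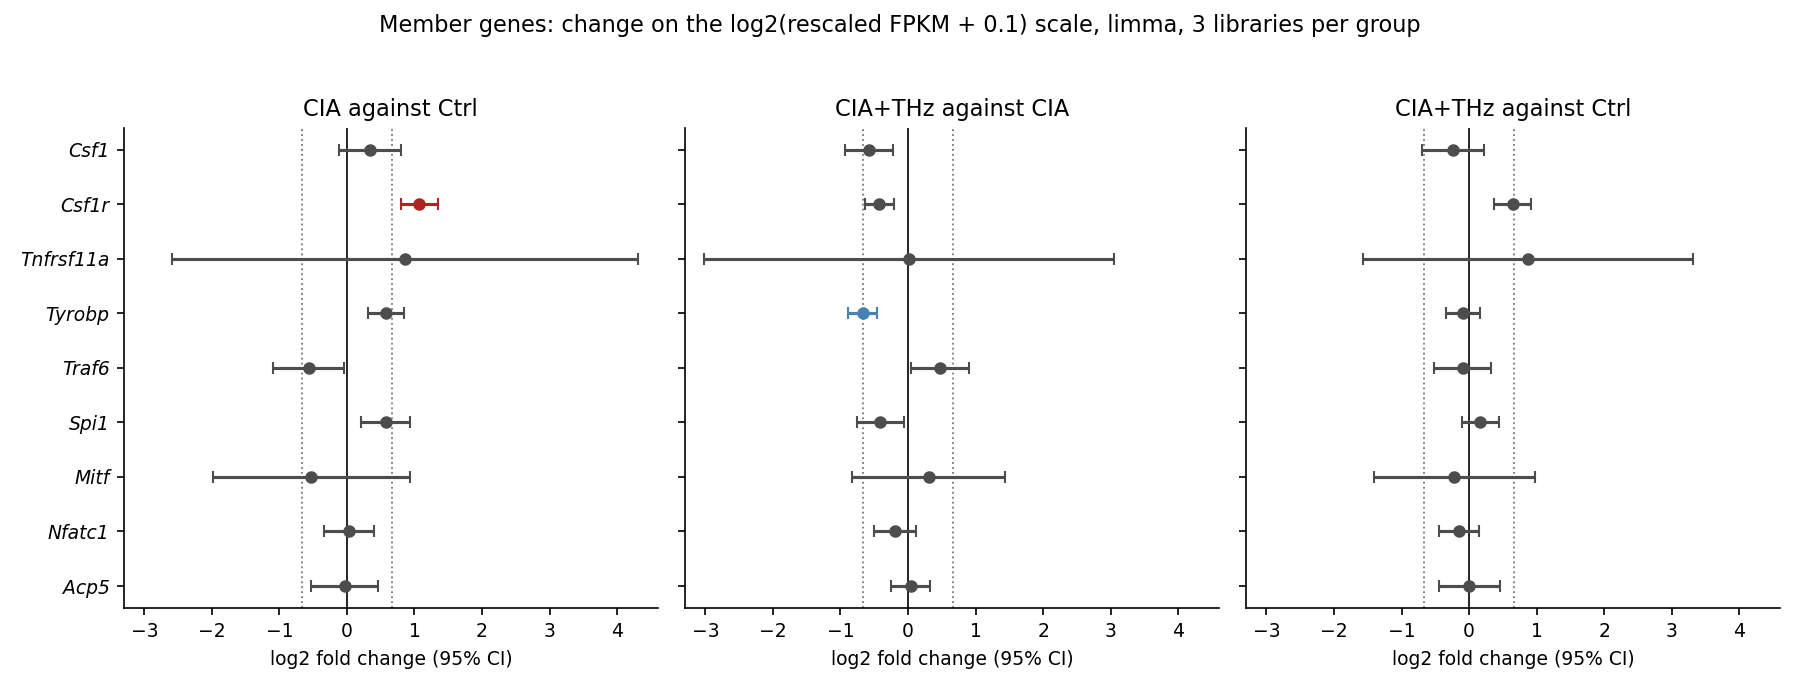
Difference on the log2(rescaled FPKM + 0.1) scale (horizontal axis) for the 9 members tested, with points for the limma estimate, bars for its 95% interval, dotted lines at 0.67 either way, red for a gene past the criterion and higher, blue for past it and lower. Csf1r passes in CIA against Ctrl and Tyrobp in CIA+THz against CIA, while the intervals of Tnfrsf11a and Mitf are wide, and both genes lie near 0.

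Set side by side, 6 of the 9 members were higher and 3 lower in CIA than in Ctrl, with a median log2 difference of 0.34 against -0.01 over all genes tested. With irradiation, 4 were higher and 5 lower than in CIA, with a median of -0.19 against 0.03 over all genes. With the values as deposited, 5 of the 9 were higher and 4 lower in that comparison, with a median of 0.09, which is below the 0.29 of all genes. Members whose groups did not overlap in CIA against Ctrl were Csf1r, Tyrobp and Spi1, all higher, where 11.8% of all genes tested lay apart in that direction. The same 3 lay apart in FPKM as deposited, where 10.9% of all genes did. In CIA+THz against CIA they were Csf1, Csf1r, Tyrobp and Spi1, all lower, where 10.2% of all genes did. In FPKM as deposited Tyrobp was the one that lay apart as lower, where 1.80% of all genes did, and Acp5 and Traf6 lay apart as higher, where 26.2% of all genes did.

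These members are expressed by monocytes, and in bulk blood a change in the number of cells of a type and a change in RNA per cell cannot be told apart. The list of 10 classical monocyte markers, which holds Ly6c2, Ccr2 and F13a1 and no member gene, moved with them. Its summed level was 3428 to 3873 in the Ctrl libraries, 5722 to 6285 in the CIA libraries and 3884 to 4166 in the CIA+THz libraries, with no marker at 0. In CIA against Ctrl 9 of the 10 markers were higher, 5 of them past the criterion, with a median log2 difference of 0.71. In CIA+THz against CIA all 10 were lower after rescaling, 3 past the criterion, with a median of -0.41, whereas in FPKM as deposited 4 of the 10 were higher and the median was -0.14. The summed level of 10 patrolling monocyte markers was 281 to 368 in Ctrl, 355 to 392 in CIA and 329 to 368 in CIA+THz. Its largest part is Cd300ld, with means of 182, 191 and 146.5, and the list did not follow the sum. In CIA against Ctrl 8 of the 10 were higher, 1 past the criterion, with a median log2 difference of 0.20. In CIA+THz against CIA 7 were higher, 1 past it, with a median of 0.26, or 0.54 in FPKM as deposited. In CIA+THz against Ctrl 9 were higher, 4 past it, with a median of 0.46, or 0.77 as deposited. The part of either marker list in the differences of the members was not tested.

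Read against the mean log2 level of the 10 classical monocyte markers, a scale added after the data had been seen, the members separated. Csf1r stood 0.02 ± 0.29 (SD, n = 3) above the markers in Ctrl, 0.26 ± 0.14 (SD, n = 3) in CIA and 0.29 ± 0.06 (SD, n = 3) in CIA+THz, with overlap between all groups, and its difference in CIA against Ctrl was then 0.24, no longer past the criterion. Tyrobp stood 1.27 ± 0.05 (SD, n = 3) above them in Ctrl, 1.03 ± 0.14 (SD, n = 3) in CIA and 0.80 ± 0.05 (SD, n = 3) in CIA+THz. On this scale the Tyrobp mean was thus lower in CIA than in Ctrl, the reverse of its level. That difference was -0.24, with an unadjusted limma p of 0.149, so no fall is established. Its difference in CIA+THz against CIA was -0.23, no longer past the criterion. Spi1 stood 1.29 ± 0.04 (SD, n = 3) above the markers in Ctrl, 1.04 ± 0.33 (SD, n = 3) in CIA and 1.08 ± 0.16 (SD, n = 3) in CIA+THz. Traf6 stood -2.91 ± 0.18 (SD, n = 3), -4.30 ± 0.23 (SD, n = 3) and -3.38 ± 0.10 (SD, n = 3) from them, and its 3 groups did not overlap. By level its groups overlapped, while those of the marker mean that was subtracted did not. The share of all genes whose groups lie apart on this scale was not computed. The members past the criterion on this scale in CIA against Ctrl were Traf6 (-1.39), Acp5 (-0.86) and Nfatc1 (-0.79), all lower, and in CIA+THz against CIA it was Traf6 (0.92). By level the log2 difference in CIA against Ctrl was -0.04 for Acp5 and 0.04 for Nfatc1, so these 2 calls come from the rise of the markers. The share of all genes past the criterion on this scale was not computed. Acp5 stood -2.57 ± 0.50 (SD, n = 3), -3.43 ± 0.24 (SD, n = 3) and -2.95 ± 0.12 (SD, n = 3) from the markers in Ctrl, CIA and CIA+THz, and Nfatc1 stood -1.54 ± 0.28 (SD, n = 3), -2.33 ± 0.30 (SD, n = 3) and -2.07 ± 0.12 (SD, n = 3) from them, so that the levels of both, which overlapped between groups, were lower in CIA relative to the markers.

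**Figure D3:**
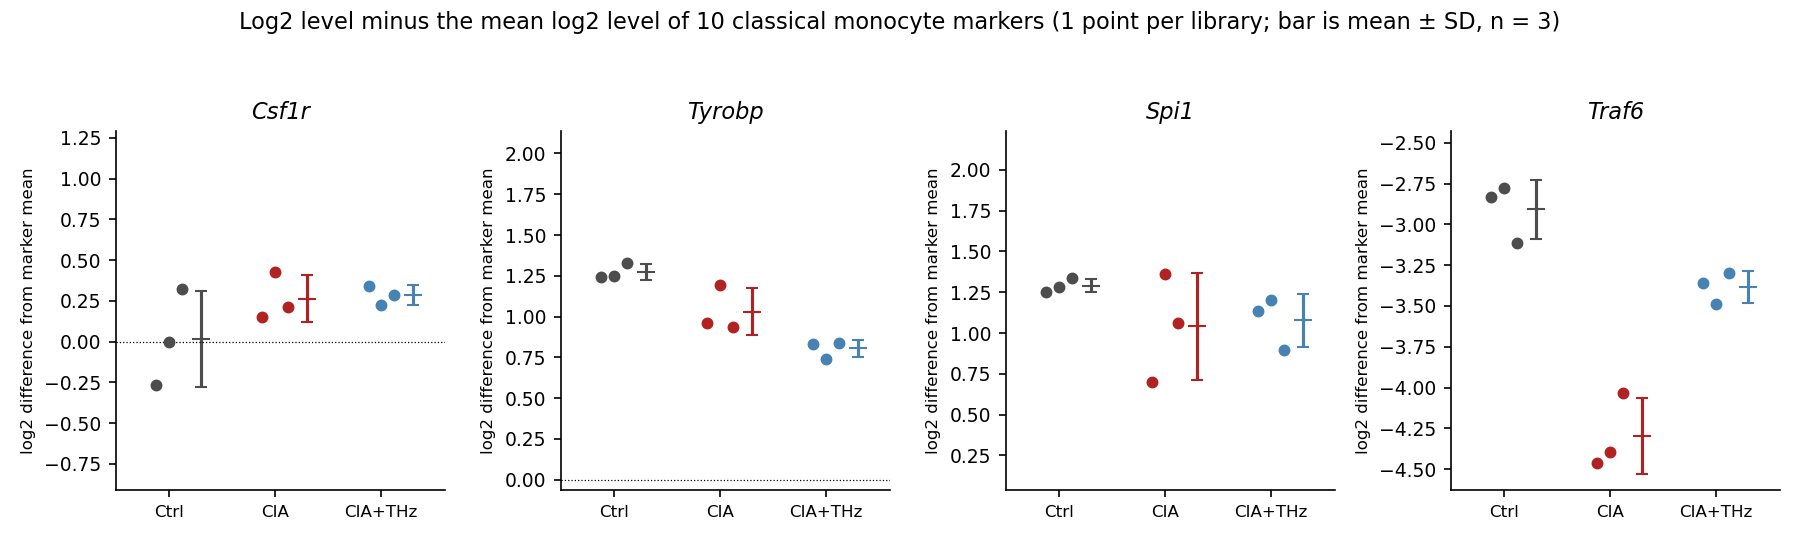
Log2 level of 4 members minus the mean log2 level of the 10 classical monocyte markers in the same library (vertical axis), with 1 point per library and the mean ± SD of 3 libraries. Csf1r overlaps between all groups around 0.02 to 0.29, Tyrobp steps down from 1.27 to 0.80, and Traf6 is lowest in CIA at -4.30.

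The summed levels of other cell type markers also differed between the groups. The summed level of 10 neutrophil markers was 12539 to 21252 in Ctrl, 14653 to 19278 in CIA and 10744 to 12214 in CIA+THz, a sum carried mostly by S100a9. Within the list, 3 genes of neutrophil granules rose in CIA against Ctrl, Camp with a ratio of means of 26.2, Ltf with 20.2 and Ngp with 8.81, of which Camp and Ltf had a limma adjusted p of 0.0361, while Mmp8 fell, with a ratio of 0.384. In CIA+THz against CIA all 10 were lower after rescaling, 4 past the criterion, and 9 of 10 in FPKM as deposited. The summed level of 6 erythroid markers, 69131 to 103701 in Ctrl, 87188 to 97884 in CIA and 47473 to 65467 in CIA+THz, is nearly all Alas2, and the list as a whole did not follow it. In CIA against Ctrl 5 of the 6 were lower, 1 past the criterion (Klf1, a ratio of 0.330), with a median log2 difference of -0.56. Between CIA and CIA+THz 4 of them had a negative difference and none passed, with a median of -0.09. The 7 T cell markers summed to 239 to 272 in Ctrl, 200 to 220 in CIA and 244 to 334 in CIA+THz. Csf1, Tyrobp and Spi1 are also expressed outside monocytes, and the part of these cells in their differences was not tested.

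Around the members, 95 further genes of the M-CSF and RANK pathways were taken from 7 lists, of which 90 were tested and 2, Calcr and Siglec15, were listed at 0 in all 9 libraries. In CIA against Ctrl 2 rose and 2 fell past the criterion, 4 of 90 where 9.04% of all genes tested passed, and in CIA+THz against CIA 1 rose and 1 fell, 2 of 90 where 4.54% of all genes passed. In CIA+THz against Ctrl 4 rose and 2 fell, 6 of 90 where 7.88% of all genes passed, 4.64% higher and 3.24% lower after rescaling and 12.9% and 0.970% in FPKM as deposited. In FPKM as deposited the pathway genes past it were 12 there, 11 higher and 1 lower. In CIA+THz against CIA they were 6, all higher, where 9.11% of all genes passed as higher and 0.534% as lower. In CIA against Ctrl after rescaling they were 10 without CIA library 1 and 8 without Ctrl library 3. The shares over all genes in those reduced fits were not computed. Among the 6 in CIA+THz against Ctrl after rescaling were Trem2, Lair1 and Lilra5 (1.05 on the log2 scale), which were higher, and Dcstamp and Car2 (-0.78), which were lower. None of the 90 had a limma adjusted p under 0.05 in any of the 3 comparisons. At an unadjusted p under 0.05 alone the counts were 22, 18 and 25 of 90, where 17.3%, 13.2% and 18.1% of all genes tested stood. The median log2 difference of the 90 was 0.01 in CIA against Ctrl and -0.04 in CIA+THz against CIA, the second being 0.24 in FPKM as deposited.

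**Figure D4:**
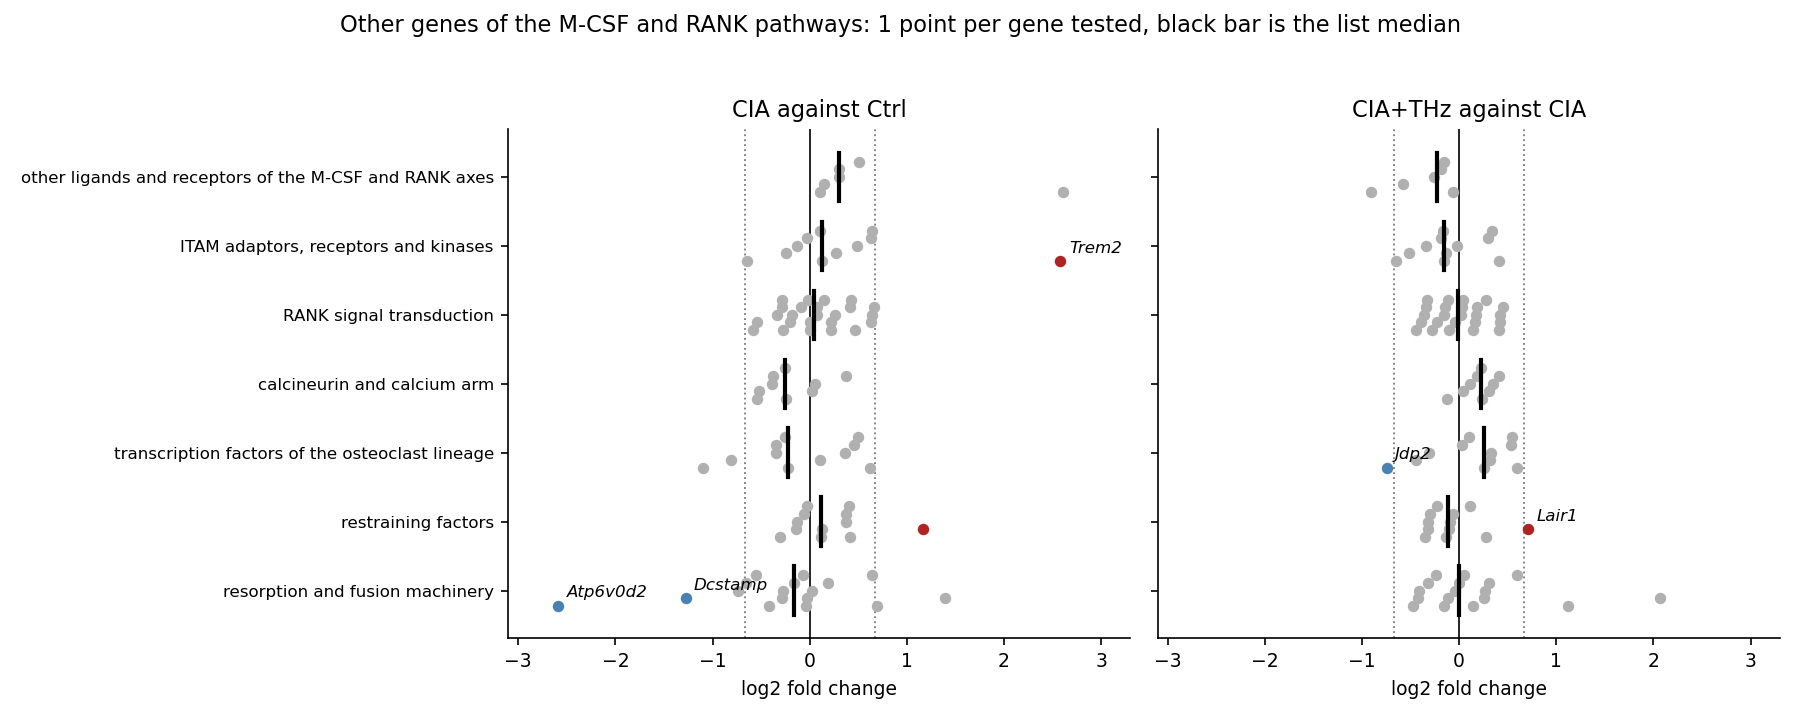
Log2 fold change (horizontal axis) of the pathway genes tested, 1 point per gene, by list, with a black bar at the list median, dotted lines at 0.67 either way, and genes past the criterion in red (higher) or blue (lower), with the names of those described in the text. Points outside the dotted lines in grey had an unadjusted p of at least 0.05, and in these 2 comparisons the list medians lie within 0.30 of 0.

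Among the other ligands and receptors, Il34, the other ligand of the M-CSF receptor, was at 0, 3.49 and 0.659 in Ctrl, 2.44, 4.61 and 5.05 in CIA, and 1.65, 1.34 and 3.56 in CIA+THz. The groups overlapped, and the log2 difference of 2.61 ± 1.18 (SE) in CIA against Ctrl, where 1 Ctrl library is at 0, had a limma adjusted p of 0.310. Tnfsf11, which encodes RANK ligand, was listed above 0 only in CIA+THz libraries 1 and 3, at 0.11 and 0.18. Tnfrsf11b, the decoy receptor that captures RANK ligand, was above 0 only in Ctrl library 1, at 0.35, and in CIA+THz library 2, at 0.10. None of the 6 genes of this list that were tested passed the criterion, although the CIA mean log2 level exceeded that of Ctrl for all 6 and all 6 were lower in the irradiated than in the CIA libraries, the latter being 3 of 6 in FPKM as deposited.

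Of the ITAM adaptors, receptors and kinases, Trem2 rose in CIA against Ctrl. TREM2 is a lipid-sensing receptor that signals through DAP12 in macrophages and osteoclast precursors. Its level was 1.47, 0.810 and 2.16 in Ctrl, 6.92, 10.02 and 9.64 in CIA, and 8.69, 4.30 and 4.53 in CIA+THz. All 6 arthritic libraries lay above the 3 Ctrl libraries. The rise was 2.58 ± 0.37 (SE) on the log2 scale in CIA against Ctrl, a ratio of means of 5.98, with a limma adjusted p of 0.0566, and it passed the criterion whichever library was left out (2.23 to 2.89). CIA+THz against CIA gave -0.65 ± 0.30 (SE) with overlapping groups and an adjusted p of 0.419. Trem2 thus rose by more than its adaptor Tyrobp, whose ratio of means in the same comparison was 1.50, a difference that was not tested.

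No gene of RANK signal transduction (24 tested) or of the calcineurin and calcium arm (9 tested) passed the criterion in CIA against Ctrl or in CIA+THz against CIA. Of the transcription factors of the osteoclast lineage, Jdp2, an AP-1 family repressor needed for osteoclast formation, fell by 0.75 on the log2 scale between CIA and CIA+THz, with an SE of 0.31 and a limma adjusted p of 0.378. It was at 11.9, 23.7 and 11.5 in CIA and at 10.2, 9.83 and 6.78 in CIA+THz, so the groups lie apart by little and CIA library 2 is far above the other arthritic libraries. In Ctrl it was at 13.9, 13.2 and 14.1. Without CIA library 2 the difference was -0.41, and it did not pass the criterion without any 1 of the 3 CIA+THz libraries either (-0.85, -0.82 and -0.56).

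Of the restraining factors, Lair1, an inhibitory collagen receptor, rose in CIA+THz against CIA by 0.71 ± 0.24 (SE), with an adjusted p of 0.306, from 5.53, 4.44 and 4.04 to 7.14, 5.98 and 10.4, and it passed neither without CIA library 2 (0.68) or 3 (0.61) nor without CIA+THz library 1 (0.76) or 3 (0.49).

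Of the 17 genes of the resorption and fusion machinery that were tested, none rose and 2 fell in CIA against Ctrl, and none passed in CIA+THz against CIA. Dcstamp, the fusion receptor of osteoclasts that dendritic cells also express, fell in CIA against Ctrl. It was at 4.94, 6.57 and 4.51 in Ctrl, 1.56, 2.49 and 2.42 in CIA, and 2.29, 1.15 and 3.54 in CIA+THz, with both arthritic groups below every Ctrl library. The log2 difference in CIA against Ctrl was -1.28 ± 0.29 (SE) with a limma adjusted p of 0.103 and held past the criterion whichever library was left out (-1.39 to -1.07), and in CIA+THz against Ctrl it was -1.28 ± 0.40 (SE) with an adjusted p of 0.171. Atp6v0d2, a subunit of the proton pump used in resorption and fusion, was at 0, 1.58 and 1.20 in Ctrl, was listed at 0 in all 3 CIA libraries, and was at 0.61, 0 and 0.95 in CIA+THz. It passed the criterion as lower in CIA against Ctrl with a limma adjusted p of 0.281, no fold is given against values of 0, and the call was lost without Ctrl library 2, Ctrl library 3 or any 1 of the CIA libraries. Ctsk, the collagen-degrading protease of osteoclasts, was above 0 only in CIA library 2, at 1.72, and in CIA+THz libraries 1 and 3, at 0.29 and 0.18, and Ocstamp did not exceed 0.38 in any library.

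Mmp9, a gelatinase abundant in both neutrophils and osteoclasts, was at 158, 147 and 132 in Ctrl, 104, 158 and 162 in CIA, and 107, 102 and 99.8 in CIA+THz. CIA library 1 overlapped the irradiated libraries, and the log2 difference in CIA+THz against CIA was -0.43 ± 0.18 (SE) with a limma adjusted p of 0.372, under the fold of the criterion. In FPKM as deposited it was -0.15. The neutrophil markers given above moved with it, and their part in this difference was not tested. Of the 7 mature osteoclast markers listed, Calcr was at 0 in every library. Ctsk, Ocstamp and Atp6v0d2 were at 0 in some libraries and reached at most 1.72, 0.38 and 1.58. Dcstamp, Acp5 and Mmp9 were above 0 in every library, with lowest values of 1.15, 12.2 and 99.8.

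**Figure D5:**
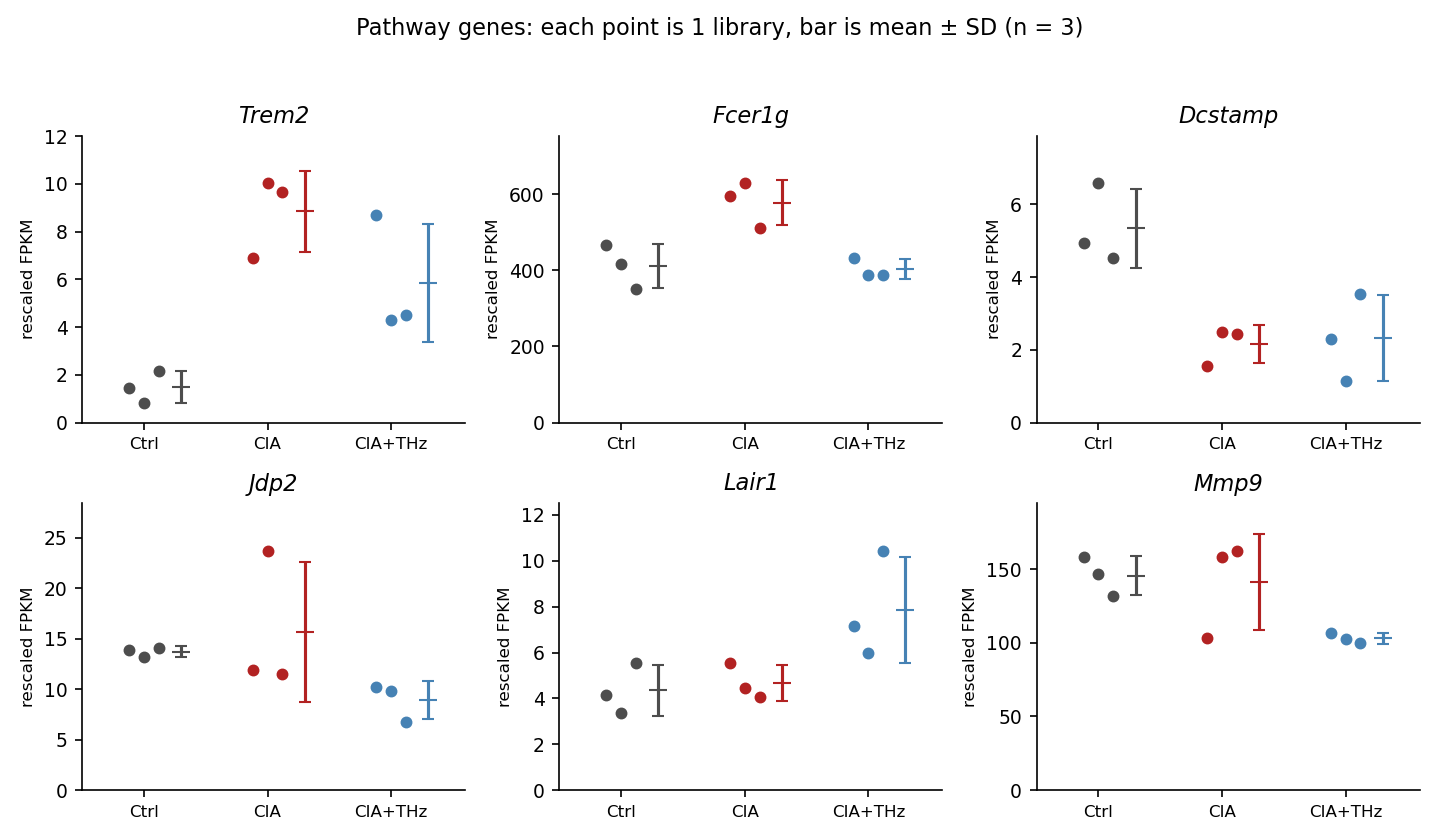
Level of 6 pathway genes in rescaled FPKM (vertical axes start at 0 and differ between panels), with 1 point per library and the mean ± SD of 3 libraries. Trem2 is higher and Dcstamp is lower in both arthritic groups than in Ctrl, Fcer1g is highest in CIA, CIA library 2 stands apart in Jdp2, and Lair1 is highest in CIA+THz.

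The genes whose pattern over the 9 libraries was most like that of Csf1r, among 9748 genes with a mean level of at least 1, were Man2c1 (Pearson r = 0.986), Psap (0.980), Nuak2 (0.980), Ctsa (0.975) and Pik3r2 (0.973). For Acp5 they were Pebp1 (0.982), Prdx6 (0.920), Exog (0.902), Rbmx (0.892) and Tusc2 (0.888). The points are libraries that share the differences between groups and the scaling, and the values are a description only. Oscar, at 0 throughout, has no such genes. Between members the highest value was 0.796, for Tyrobp and Spi1, and the lowest was -0.712, for Csf1r and Traf6.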

How the data were processed

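RNA of mouse blood was measured in 9 libraries, 3 each of Ctrl, CIA and CIA+THz, grouped by their labels. The table that the authors deposited holds FPKM of 20926 gene symbols in these libraries. The submitters' processing notes name bcl2fastq 2.0, HISAT2, StringTie, DESeq2 and mm10; the annotation, the strand setting and filters are not given in the sources used here. The low values showed no whole-read steps (at best 25.5% to 34.3% within 0.1 of a whole number, 20% for an even spread), so no counts were recovered and depth, which sets the precision of low genes, was not estimated.

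A median-of-ratios factor per library rescaled the FPKM. limma 3.58.1 (lmFit, eBayes with a trend) in R 4.3.3 was run on log2(rescaled FPKM + 0.1), keeping 12366 genes whose mean was at least 0.1, each pair of groups on its 6 libraries, with Benjamini-Hochberg adjustment over all genes. The criterion (p under 0.05 before adjustment, log2 difference beyond 0.67 either way) follows the study. The members, the pathway lists and the marker lists were chosen with earlier results of these data known. The pathway genes named were Il34, Tnfsf11, Tnfrsf11b, Ctsk, Calcr, Dcstamp, Ocstamp, Atp6v0d2 and Mmp9, plus, in CIA against Ctrl and in CIA+THz against CIA, those past the criterion with a mean of at least 1, ranked by size of change, up to 5 in each direction; Fcer1g, Siglec15, Lilra5, Car2, Hmgxb3 and the single marker genes were named after their values were seen, and 1 gene that this rule names is not reported here. Positions were taken by symbol from GENCODE (GRCm38). On simulated data with 200 of 12366 genes changed 4-fold in CIA against Ctrl, all 200 were recovered, together with 356 unchanged genes. The changed genes were all drawn from well-expressed genes, so the recovery does not cover genes near 0 or smaller changes.

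Alternatives were FPKM as deposited, TPM, a fit without the trend, 1 fit over all 3 groups, a pseudocount of 1, a minimum mean of 1 or no minimum, an analysis of variance on linear values, the adjusted p as criterion, the replicate block, leaving out each library and, added after the data were seen, centring on the classical monocyte markers.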

Additional observations from a re-analysis of the deposited data

How the results depend on the processing

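The 9 members gave 399 fold changes under alternatives, of which 339 kept their direction and their side of the criterion, 40 changed sign, 13 came past the criterion and 7 dropped out of it. The rise of Csf1r in CIA against Ctrl passed under every alternative except centring on the classical monocyte markers. With the adjusted p as criterion the counts were 2 members across the 3 groups, 1 in CIA against Ctrl, 0 in each other comparison, and 0 pathway genes in each of the 3. Across the 3 groups, fits with no trend and the analysis of variance each gave 3 members in place of 5. In CIA+THz against CIA a pseudocount of 1 left 0 members and 1 pathway gene, no trend left 1 pathway gene, and 2 was the count as reported.

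In FPKM as deposited and in TPM, Csf1r passed in CIA+THz against Ctrl (1 member in place of 0), Traf6 took the place of Tyrobp in CIA+THz against CIA, and the pathway genes numbered 6 and 7 in CIA+THz against CIA, all higher, and 12 each in CIA+THz against Ctrl, 11 of them higher. Of all genes, 9.11% passed as higher in CIA+THz against CIA and 12.9% in CIA+THz against Ctrl in FPKM as deposited. The shares in TPM were not computed. The signs that turned were, in FPKM and then in TPM, Nfatc1 in CIA+THz against CIA (0.087, 0.13) and, in CIA+THz against Ctrl, Csf1 (0.062, 0.067), Mitf (0.022, 0.043), Nfatc1 (0.15, 0.16), Traf6 (0.21, 0.22) and Tyrobp (0.22, 0.22). These settings lack the median-of-ratios factor, which lowers the irradiated group. A pseudocount of 1 gave -0.26 for Tnfrsf11a in CIA+THz against CIA and -0.00035 for Acp5 in CIA+THz against Ctrl. Centred on the monocyte markers, 3 members passed in CIA against Ctrl, all lower (Traf6, Acp5 and Nfatc1), Traf6 in place of Tyrobp passed in CIA+THz against CIA, and the turned signs were Csf1 -0.49, Nfatc1 -0.79, Spi1 -0.25 and Tyrobp -0.24 in CIA against Ctrl, Csf1r 0.023, Nfatc1 0.26 and Spi1 0.038 in CIA+THz against CIA, and Acp5 -0.38 and Spi1 -0.21 in CIA+THz against Ctrl. This centring lowers every gene in CIA against Ctrl by the rise of the markers. The share of all genes past the criterion under it was not computed.

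Leaving out each library in turn gave 1 to 2 members in CIA against Ctrl, 0 to 2 in CIA+THz against CIA, 0 to 1 in CIA+THz against Ctrl and 3 to 5 across the 3 groups (3 without CIA library 2 or CIA+THz library 1). The pathway genes numbered 3 to 10 in CIA against Ctrl (10 without CIA library 1, 8 without Ctrl library 3), 1 to 3 in CIA+THz against CIA (1 without CIA library 2 or 3 or CIA+THz library 1 or 3) and 3 to 7 in CIA+THz against Ctrl (3 without CIA+THz library 3). The shares over all genes in these reduced fits were not computed. The fold changes that changed sign ranged, in CIA against Ctrl, from -0.22 to 0.16 for Acp5, -0.058 to 0.15 for Nfatc1 and -0.20 to 2.35 for Tnfrsf11a; in CIA+THz against CIA, from -0.056 to 0.090 for Acp5, -0.10 to 0.61 for Mitf and -1.48 to 0.85 for Tnfrsf11a; and in CIA+THz against Ctrl, from -0.18 to 0.19 for Acp5, -0.61 to 0.18 for Mitf, -0.19 to 1.82 for Tnfrsf11a and -0.26 to 0.033 for Traf6. Where no cause is named, the cause was not tested.

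No sign of pairing by replicate number was seen: deviations of same-numbered libraries from their group means correlated at -0.05 to 0.03, in 0 of 9 pairs above 0.1, and 2 of 9 libraries correlated best with their own number. The labels do not say what the numbers stand for, and this check cannot exclude a weak pairing. With the replicate block the counts were 1, 1 and 0 members in CIA against Ctrl, CIA+THz against CIA and CIA+THz against Ctrl, 4 across the 3 groups, and 4, 3 and 7 pathway genes. The depth, not estimated here, limits Tnfrsf11a, Mitf, Atp6v0d2 and the other genes near 0.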
